A study of Mus musculus with 6 samples.

Results

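Neurotrophic factors and their receptors were followed as 9 genes in cancer-associated fibroblasts (CAFs) of mouse mammary tumors. They were the ligand genes Bdnf, Ntf3 and Gdnf and the receptor genes Ntrk2, Ntrk3, Ngfr, Gfra1, Gfra2 and Ret. The 9 were taken by gene symbol from a table of 27179 genes, and all 9 were among the 14855 genes with enough reads to be tested. The comparison asked how CAFs that lack the surface protein CD34 differ from CAFs that carry it.

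Neurotrophins are secreted as precursors, cut by proprotein convertases or extracellular proteases, and read by Trk receptor tyrosine kinases. BDNF binds TrkB (gene Ntrk2) and neurotrophin 3 binds TrkC (gene Ntrk3), while all neurotrophins and their precursors can bind p75NTR (gene Ngfr). Ligands of the GDNF family first bind a co-receptor held to the membrane by a lipid anchor, GFRα1 for GDNF and GFRα2 for neurturin, and the pair then engages the receptor tyrosine kinase RET. Both systems are best known for the survival and guidance of neurons, and fibroblasts of many tissues make some of these ligands.

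The tumors came from raGFP-Wnt1 mice, a cross of MMTV-Wnt1 mice (FVB/NJ), whose Wnt1 transgene is driven by the mouse mammary tumor virus promoter, with Pdgfra H2B-GFP mice (C57BL/6). The reporter was heterozygous and marks the nuclei of cells that use the Pdgfra promoter, and the sort took cells by this GFP signal. GFP-positive cells of 3 tumors were each split into a CD34 negative and a CD34 positive fraction, which gave 6 libraries, 3 per group, and both groups carry the transgene and the reporter. No other treatment, and no age for these mice, was given in the sources used here. Libraries are named by fraction and tumor, so that negative library 1 and positive library 1 came from tumor 1.

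Libraries held between 16238059 and 86609267 counts. Cd34 itself had 74.3 ± 30.2 CPM (counts relative to library size, with TMM scaling; mean ± SD, n = 3) in negative and 948.2 ± 571.4 CPM (n = 3) in positive libraries, with no overlap. The fibroblast markers Dcn, Lum, Pdgfra, Col1a2 and Igfbp5 summed to between 23891 and 39368 CPM in negative and between 25535 and 33585 CPM in positive libraries, and with the tumor as a block Dcn and Lum were called lower in CD34 negative CAFs. Negative library 3 stood apart, with counts for 14314 genes against between 16253 and 19220 in the others. Its log2 CPM correlated at 0.837 across genes with its partner from tumor 3, against 0.952 in tumor 1 and 0.955 in tumor 2, so values without tumor 3 are given beside the results that rest on it.

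Each gene was tested with limma-voom, two-sided, with Benjamini-Hochberg adjustment over all genes tested and a threshold of 0.05. A positive log2 fold change means a higher level in CD34 negative CAFs. The methods of the study do not say whether the tumor was in its model. In the main model, which left it out, none of the 9 members passed the threshold, and 2, Gfra2 and Ret, had an unadjusted p under 0.05. Over all genes tested that model called 18 genes, or 0.121%. Both fractions of a tumor share that tumor, and the model that took the tumor as a block called 3 members, where it called 8.57% of all genes tested. Of these, Bdnf was higher in CD34 negative CAFs, where 4.32% of all genes were called higher. Gfra2 and Ret were lower in CD34 negative CAFs, against 4.25% of all genes called lower. Ret passed the low-count filter only through its positive libraries, so its difference is a description of these libraries, and counts of members that include it are not read against the share of all genes. Without Ret the block called 2 members, Bdnf and Gfra2. In bulk libraries, fewer cells that use a gene and less RNA per cell cannot be told apart.

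**Figure D1:**
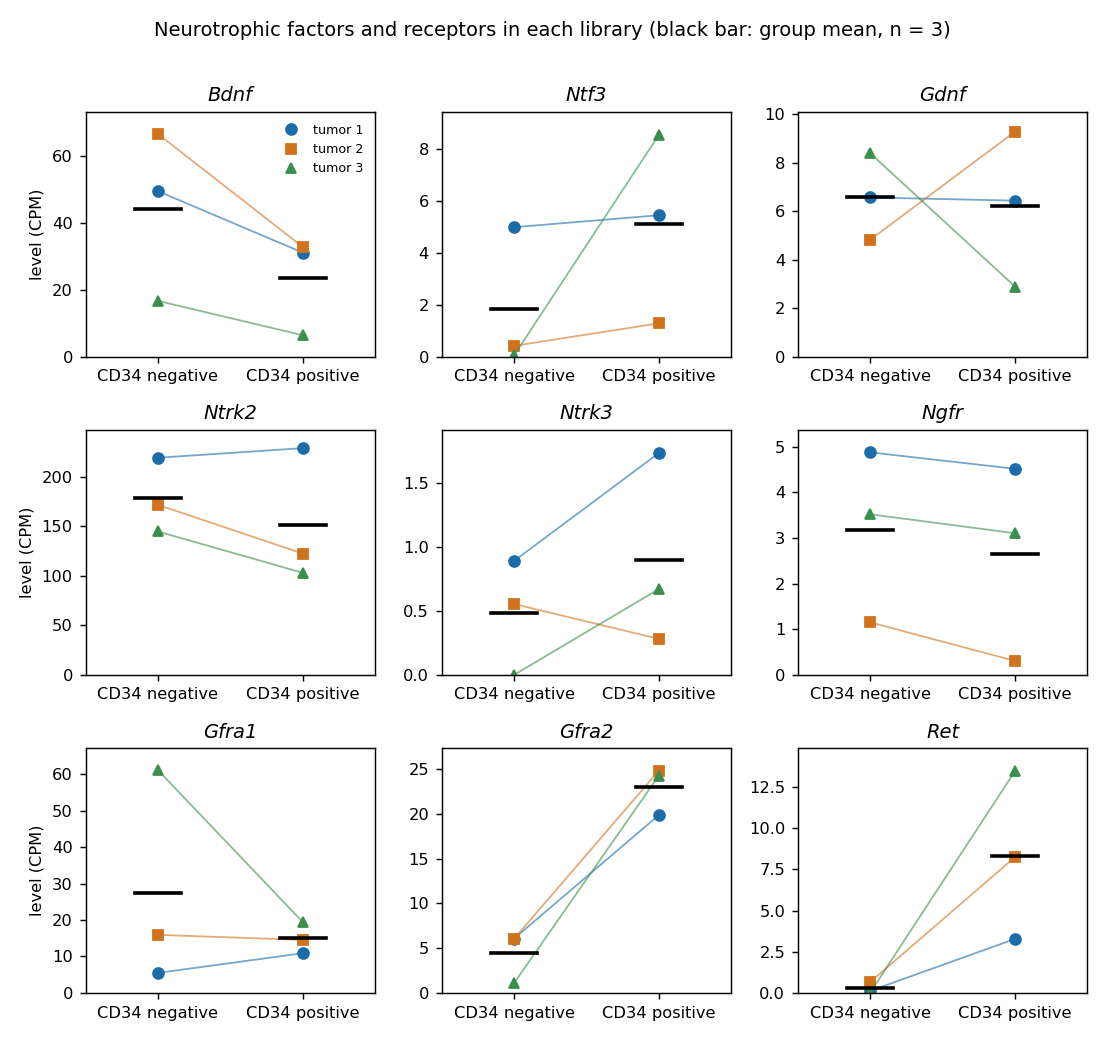
Level of the 9 members in each library (y axis, CPM, linear from 0) in CD34 negative and CD34 positive CAFs (x axis), with a line joining the 2 libraries of a tumor and a black bar at each group mean (n = 3). The lines of Bdnf fall from left to right in all 3 tumors, and the groups do not overlap for Gfra2 (at most 6.07 against at least 19.9 CPM) and Ret (at most 0.664 against at least 3.28 CPM).

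Bdnf, the gene of brain-derived neurotrophic factor, had the clearest difference among the ligands. Negative libraries 1, 2 and 3 held 49.4, 66.4 and 16.7 CPM, and positive libraries 1, 2 and 3 held 31.1, 32.8 and 6.42 CPM. The groups overlapped, since both libraries of tumor 3 were low, but within every tumor the negative library was the higher one. The ratio of the negative to the positive library was 1.59 in tumor 1, 2.03 in tumor 2 and 2.60 in tumor 3. The mean level was 44.2 ± 25.3 CPM in negative and 23.4 ± 14.7 CPM in positive libraries (SD, n = 3 each). Without the tumor in the model the log2 fold change was 0.94 ± 0.68 (SE, adjusted p = 0.566). With the tumor as a block the estimate was nearly the same and its error smaller, at 0.97 ± 0.18 (adjusted p = 0.0126). The call was kept without tumor 1 (1.10, adjusted p = 0.00619) and without tumor 3 (0.88, adjusted p = 0.00524), and it was lost without tumor 2 (0.89, adjusted p = 0.19).

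Markers of pericytes, and Des among the muscle markers, also had their higher levels in negative libraries. The pericyte markers Rgs5 and Mcam summed to between 41.5 and 49.7 CPM in negative and between 4.23 and 17.6 CPM in positive libraries, and 1 of the 2, Mcam, was called higher with the tumor as a block. The 4 muscle markers summed to between 2.97 and 13.3 CPM in negative and between 1.52 and 1.86 CPM in positive libraries. Des, the intermediate filament gene of muscle, carried most of that sum, with a mean of 6.85 CPM in negative and 1.11 CPM in positive libraries, and was called with the block. Acta1, the other muscle marker tested, had 0.22 CPM in negative and 0.544 CPM in positive libraries (adjusted p = 0.779 with the block), and Myf5, a muscle lineage factor, had no count in any library. The part of such cells in the Bdnf difference was not tested.

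Bdnf lies on chromosome 2 (109674700-109727043, GRCm38.p6) and is known for many alternative first exons, each with its own promoter, spliced to a common coding exon. GENCODE lists 11 transcripts, and the counts are per gene, so the data do not show which promoter carried the difference. RefSeq gave 7 windows of 250 bases before to 50 after a Bdnf transcript start. They were searched on both strands for TGACG (reverse complement CGTCA), a short core of the cAMP response element known from the activity-dependent Bdnf promoters, and for TATAAA (reverse complement TTTATA), the TATA box. Of the 7 windows, 1 held TGACG and none held TATAAA, where 20.8% and 13.6% of all 32851 promoter windows held them. The window with the match, chr2:109692186-109692485 on the plus strand of GRCm38.p6, is shown because it marks where such a letter match lies in the called ligand gene, with the match in capitals.
Bdnf window: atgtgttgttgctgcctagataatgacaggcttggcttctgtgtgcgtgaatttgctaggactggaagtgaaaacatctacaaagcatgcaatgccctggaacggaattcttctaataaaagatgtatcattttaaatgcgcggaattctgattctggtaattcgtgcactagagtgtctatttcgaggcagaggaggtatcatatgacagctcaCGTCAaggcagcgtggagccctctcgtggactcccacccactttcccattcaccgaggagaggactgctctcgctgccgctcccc
A match of letters describes the window and is not a measured binding site.

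Ntf3, the gene of neurotrophin 3, had levels that spread widely within both groups. Negative libraries 1, 2 and 3 held 4.99, 0.421 and 0.055 CPM, and positive libraries 1, 2 and 3 held 5.45, 1.29 and 8.54 CPM. Tumor 1 had nearly equal levels in both fractions, and the widest gap lay in tumor 3, where the negative library held 2 counts and the positive one 242. In tumor 2 the ratio of the positive to the negative library was 3.06, with a 95% counting interval from 1.87 to 5.28. The log2 fold change was -1.86 ± 1.58 (SE, adjusted p = 0.63) without and -1.11 ± 0.91 (adjusted p = 0.529) with the block, whose 95% interval ran from -3.15 to 0.92. The estimate rested on tumor 3. Without that tumor it was -0.24 (adjusted p = 0.962), and -0.53 (adjusted p = 0.486) with the block, and without negative library 3 alone it was -0.71 (adjusted p = 0.828). A difference was not detectable at this spread. The interval holds Ntf3 levels several-fold lower in CD34 negative CAFs, and also levels that are higher there.

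Gdnf, the gene of the glial cell line-derived neurotrophic factor, was present in all libraries at a low level. Negative libraries 1, 2 and 3 held 6.57, 4.83 and 8.39 CPM, and positive libraries 1, 2 and 3 held 6.44, 9.28 and 2.89 CPM. The tumors disagreed in direction, with the positive library higher in tumor 2, the negative one higher in tumor 3 and the 2 alike in tumor 1. The log2 fold change with the block was -0.17 ± 0.45 (SE, adjusted p = 0.871), with a 95% interval from -1.18 to 0.83. Of the 2 promoter windows that RefSeq gave for Gdnf (chromosome 15, 7810048-7837580), 1 held both TGACG and TATAAA, which did not overlap. It is shown beside that of Bdnf because it is the only one of the 14 windows of the members with a TATA box, at chr15:7809798-7810097 on the plus strand of GRCm38.p6, with both matches in capitals.
Gdnf window: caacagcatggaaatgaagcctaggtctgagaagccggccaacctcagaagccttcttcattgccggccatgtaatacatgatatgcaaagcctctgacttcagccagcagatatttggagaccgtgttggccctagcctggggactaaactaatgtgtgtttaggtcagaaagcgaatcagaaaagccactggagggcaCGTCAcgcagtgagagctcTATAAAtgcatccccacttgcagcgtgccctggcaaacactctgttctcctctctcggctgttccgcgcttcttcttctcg
Windows were matched for 6 of the 9 members (Bdnf, Ntf3, Gdnf, Ngfr, Ntrk2 and Gfra1), and the 5 windows of Ntf3, Ngfr, Ntrk2 and Gfra1 held neither motif.

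Ntrk2, the gene of the BDNF receptor TrkB, was the most abundant member. Negative libraries 1, 2 and 3 held 219.1, 171.6 and 144.6 CPM, and positive libraries 1, 2 and 3 held 228.7, 122.4 and 103.0 CPM. Both fractions of every tumor were thus above 100 CPM, and tumor 1 was the highest in both groups. The ratio of the negative to the positive library was 0.958 in tumor 1, 1.40 in tumor 2 and 1.40 in tumor 3. With the block the log2 fold change was 0.31 ± 0.15 (SE, adjusted p = 0.257), with a 95% interval from -0.03 to 0.64. Ntrk2 makes a full-length kinase form and truncated forms without the kinase. The counts are per gene over 10 GENCODE transcripts, 7 of them protein coding, and do not separate these forms.

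The other Trk receptor and p75NTR were near the lower end of what these libraries could measure. Ntrk3, the gene of TrkC, had 0.89, 0.554 and 0 CPM in negative libraries 1, 2 and 3 and 1.73, 0.281 and 0.67 CPM in positive libraries 1, 2 and 3. The 0 of negative library 3 allows up to 0.0825 CPM, the level of 3 counts, while the positive library of tumor 3 held 19 counts, which puts the lower 95% counting limit of its ratio to the negative one at 5.99. Tumor 2 went the other way, and the log2 fold change with the block was -0.85 ± 1.16 (SE, adjusted p = 0.732). Without tumor 3 it was -0.13 (adjusted p = 0.937) with the block and 0.67 (adjusted p = 0.81) without it.

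Ngfr held 4.88, 1.15 and 3.52 CPM in negative libraries 1, 2 and 3 and 4.52, 0.304 and 3.10 CPM in positive libraries 1, 2 and 3. Its negative library was the higher one in all 3 tumors, by 1.08-fold, 3.78-fold and 1.13-fold, but the groups overlapped because tumor 2 was low in both fractions. The limma-voom estimate without the tumor, 1.90 ± 1.01 on the log2 scale (SE, adjusted p = 0.436), was far above the ratio of the group means, and it rested on positive library 2, which held 26 counts. Without that library the estimate was -0.37 (adjusted p = 0.928). With the block the estimate was 0.42 ± 0.57 (adjusted p = 0.727).

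**Figure D2:**
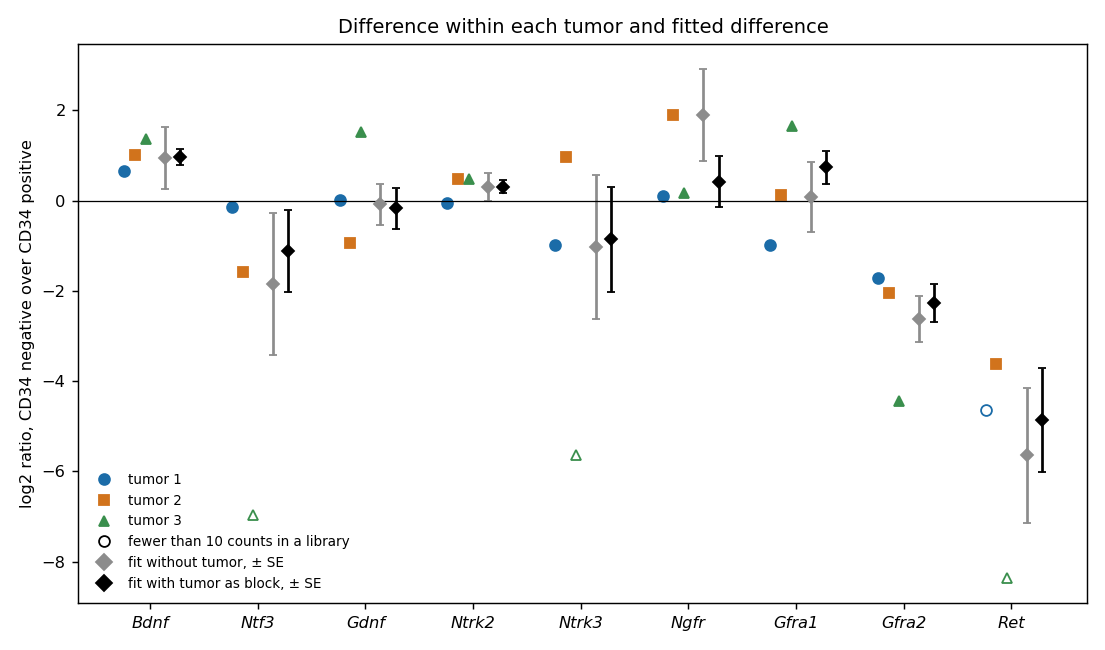
Log2 ratio of the CD34 negative to the CD34 positive library (y axis) for each member (x axis) within each of the 3 tumors (colored symbols, open where a library had fewer than 10 counts), beside the fitted log2 fold change ± SE without the tumor (gray) and with the tumor as a block (black). All 3 tumors lie above 0 for Bdnf and Ngfr and below 0 for Ntf3, Gfra2 and Ret. The tumors lie on both sides of 0 for Gdnf, Ntrk2, Ntrk3 and Gfra1.

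Ret and Gfra2, both receptors of the GDNF family, had the largest fitted differences of the 9 members. Ret, the gene of the signaling receptor, held 0.125, 0.664 and 0.0275 CPM in negative libraries 1, 2 and 3, from 7, 30 and 1 counts. Positive libraries 1, 2 and 3 held 3.28, 8.25 and 13.5 CPM, from 53, 705 and 382 counts. The groups did not overlap, and the lowest positive library was well above the highest negative one. In tumor 1 the positive library was 26.3-fold higher (95% counting interval 11.9 to 68.6), and in tumor 2 it was 12.4-fold higher (8.62 to 18.6). In tumor 3 the ratio was 489.9, but a single count in the negative library let the interval run from 87.4 to 19402. These intervals cover counting error only.

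The mean level of Ret was 0.272 ± 0.343 CPM in negative and 8.34 ± 5.10 CPM in positive libraries (SD, n = 3 each), a 30.6-fold difference of the means. Without its positive libraries Ret would not have passed the low-count filter, so that it had to be higher there to be tested, and its fitted values are given as a description. The log2 fold change was -5.65 ± 1.49 (SE, adjusted p = 0.15) without the tumor in the model and -4.87 ± 1.15 (adjusted p = 0.0313) with the tumor as a block. Without tumor 3 the blocked estimate was -3.91 (adjusted p = 0.00202). The call was lost without tumor 1 (-4.94, adjusted p = 0.162) and without tumor 2 (-6.34, adjusted p = 0.195). Only 1 count of Ret lay in negative library 3, whose own omission from the fit without the tumor gave -4.83 (adjusted p = 0.226).

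Gfra2, the gene of the neurturin co-receptor GFRα2, changed in the same direction as Ret. Negative libraries 1, 2 and 3 held 6.07, 6.04 and 1.10 CPM, and positive libraries 1, 2 and 3 held 19.9, 24.8 and 24.3 CPM. The positive libraries were alike and all above the negative ones, among which negative library 3 was the lowest. The positive library was 3.27-fold higher in tumor 1, 4.11-fold in tumor 2 and 22.1-fold in tumor 3. On average the level was 4.40 ± 2.86 CPM in negative and 23.0 ± 2.72 CPM in positive libraries (SD, n = 3 each), a 5.22-fold difference of the means. The log2 fold change was -2.62 ± 0.51 (SE, adjusted p = 0.0858) without the tumor and -2.27 ± 0.42 (adjusted p = 0.0113) with the block. That call was kept without tumor 1 (-2.57, adjusted p = 0.00934), without tumor 2 (-2.44, adjusted p = 0.000922) and without tumor 3 (-1.91, adjusted p = 0.000455). Under edgeR with the tumor as a block, which called 3.87% of all genes tested, Gfra2 had an adjusted p of 0.0531, while Bdnf (0.0402) and Ret (0.0417) passed.

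Gfra1, the gene of the GDNF co-receptor GFRα1, had no common direction. Negative libraries 1, 2 and 3 held 5.48, 15.9 and 61.1 CPM, and positive libraries 1, 2 and 3 held 10.9, 14.5 and 19.5 CPM. The order of the fractions turned between tumors, with a ratio of the negative to the positive library of 0.503 in tumor 1, 1.10 in tumor 2 and 3.14 in tumor 3. One library, negative library 3, held more than any other. The log2 fold change with the block was 0.74 ± 0.36 (SE, adjusted p = 0.262). It passed the threshold without tumor 2 (1.15, adjusted p = 0.0353) and turned to -0.18 (adjusted p = 0.721) without tumor 3.

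Ret and Gfra2 are also known from neurons, and Ngfr and Gfra1 from glia, so the markers of both were read in the same libraries. Of 6 neuron markers only Uchl1 was tested, and Th, the gene of the first enzyme of catecholamine synthesis, had no count in any library. Elavl4 and Snap25 each had 1 count over all 6 libraries. The neuron markers summed to between 1.71 and 4.59 CPM in negative and between 6.81 and 12.8 CPM in positive libraries, nearly all of it Uchl1, which many cell types can express. Uchl1 was lower in CD34 negative CAFs with the block (-1.85 ± 0.37 SE, adjusted p = 0.0159), a call lost without tumor 1 (adjusted p = 0.0642) or tumor 2 (adjusted p = 0.118). The 8 Schwann cell markers ran opposite to Ret and Gfra2, with sums between 33.5 and 37.2 CPM in negative and between 21.7 and 31.6 CPM in positive libraries. None of the 7 tested Schwann cell markers was called.

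Sums of epithelial, endothelial and macrophage markers overlapped between the groups. They lay between 16.3 and 139.6 CPM, between 1.71 and 14.8 CPM and between 8.97 and 16.2 CPM over the 6 libraries. No marker of these lists was called in either fit. Within every tumor, however, the epithelial sum was higher in the negative library. It was 139.6, 114.7 and 46.8 CPM in negative and 128.0, 75.5 and 16.3 CPM in positive libraries 1, 2 and 3. The endothelial and macrophage sums had no common direction over the tumors. The part of epithelial cells in the Bdnf difference was not tested.

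Across the 9 members, 2 (Gfra2 and Ret) had groups whose ranges did not overlap, where 20.4% of all genes tested had such ranges. In the 3 tumors, 2 members (Bdnf and Ngfr) had a higher level in every negative library than in its partner, and 3 (Ntf3, Gfra2 and Ret) a lower one. That is 5 of 9, where 46.3% of all genes tested had 1 direction in all tumors. Both counts include Ret, which had to be higher in the positive libraries to be tested, so they are not read against these shares. The median log2 fold change of the members was -0.08 without and -0.17 with the block, beside -0.03 and -0.01 over all genes tested.

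Levels of different genes were compared per length, as CPM per kilobase of gene length (RPKM). In CD34 negative CAFs the mean order was Ntrk2 (18.1 RPKM), Gfra1 (8.54), Bdnf (8.05), Gdnf (1.88), Gfra2 (1.27), Ntf3 (1.18), Ngfr (0.934), Ntrk3 (0.0931) and Ret (0.0371). Only Bdnf and Gdnf, and Ngfr and Ntrk3, were neighbours whose ranges over the 3 libraries did not overlap. In CD34 positive CAFs the mean order was Ntrk2 (15.3 RPKM), Gfra2 (6.64), Gfra1 (4.64), Bdnf (4.27), Ntf3 (3.29), Gdnf (1.77), Ret (1.14), Ngfr (0.775) and Ntrk3 (0.173). There, only Ntrk2 and Gfra2 were neighbours without overlap. Ntrk2 thus led in both fractions, and Ret had the lowest mean level per length in the negative fraction, with a range that overlapped that of Ntrk3 and lay below those of Gfra1 and Gfra2.

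**Figure D3:**
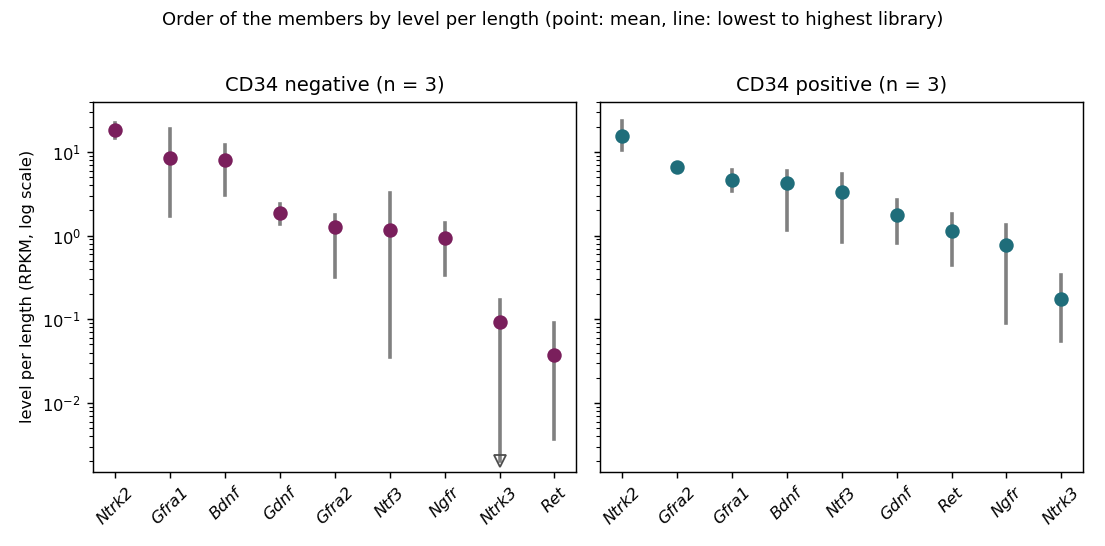
Level per length (y axis, RPKM on a log scale) of the members in decreasing order of the mean (x axis) in CD34 negative (left) and CD34 positive (right) CAFs, with a point at the mean and a line from the lowest to the highest of 3 libraries (an open triangle marks a library at 0). Gfra2 stands below Gdnf at 1.27 RPKM on the left and next to Ntrk2 at 6.64 RPKM on the right, and Ret moves from 0.0371 to 1.14 RPKM.

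Genes that make, process or relay these signals were taken from 6 lists written for the pathway. Of 66 genes, 61 were tested. Without the tumor in the model 1 passed, Pcsk6, and with the tumor as a block 10 passed, 7 higher and 3 lower in CD34 negative CAFs. That is 16.4% of the tested genes of the lists, beside 8.57% of all genes tested. The lists were chosen with earlier results of these data known, so these shares are given as a description only.

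Among the other receptors 2 of 9 tested passed with the block, both higher in CD34 negative CAFs, where 8.57% of all genes tested passed. Sort1, the gene of sortilin, which binds pro-neurotrophins beside p75NTR, had a mean of 20.5 ± 2.86 CPM in negative and 10.4 ± 4.14 CPM in positive libraries (SD, n = 3 each). Sdc3, the gene of syndecan 3, a heparan sulfate proteoglycan that binds GDNF, had a mean of 80.5 ± 15.3 CPM in negative and 42.2 ± 14.97 CPM in positive libraries. The blocked log2 fold changes were 1.04 ± 0.25 (SE, adjusted p = 0.0313) and 0.97 ± 0.16 (adjusted p = 0.00701). Sort1 lost its call under edgeR with the block (adjusted p = 0.096) and in the blocked fit without tumor 2 (adjusted p = 0.243), whereas Sdc3 kept its call in both. Gfral and Gfra3 were not tested, and Gfral had no count.

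Of 10 tested genes for the processing of pro-neurotrophins, 2 passed with the block, in opposite directions, where 8.57% of all genes tested passed. Pcsk6, the gene of the proprotein convertase PACE4, had a mean of 18.6 ± 2.96 CPM in negative and 112.0 ± 11.03 CPM in positive libraries (SD, n = 3 each). It was lower in CD34 negative CAFs in both fits (-2.60 ± 0.19, adjusted p = 0.00853, and -2.58 ± 0.18, adjusted p = 0.000159 with the block). Furin, the gene of the convertase of the secretory pathway, was higher with the block (0.58 ± 0.15 SE, adjusted p = 0.0488), just inside the threshold. That call was lost under edgeR with the block (adjusted p = 0.095) and in the blocked fit without tumor 1 (adjusted p = 0.171) or tumor 2 (adjusted p = 0.163). Genes of the plasmin system and the metalloproteases in this list were not called.

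Adaptors of TrkB and RET held 4 calls among 21 tested genes, all with the block alone, which called 8.57% of all genes tested. Shc4, whose product docks on activated receptor kinases, was higher in CD34 negative CAFs, with 214.7, 194.4 and 155.6 CPM in negative and 101.9, 81.1 and 48.7 CPM in positive libraries 1, 2 and 3 (log2 fold change 1.33 ± 0.15 SE, adjusted p = 0.00148). Dok1, a docking protein that dampens receptor kinase signals (1.22 ± 0.19, adjusted p = 0.00571), and Sh2b2 (1.18 ± 0.27, adjusted p = 0.029) were higher as well. Grb10, an adaptor best known as a brake on insulin and IGF receptors, was lower (-1.13 ± 0.15, adjusted p = 0.00312). Sh2b2 lost its call under edgeR with the block (adjusted p = 0.0537) and in the blocked fit without tumor 1 (adjusted p = 0.101) or tumor 2 (adjusted p = 0.232). These adaptors serve many receptors, and their counts say nothing of which receptor they joined. The median log2 fold change of the list with the block was 0.36, beside -0.01 over all genes tested.

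None of the 10 tested partners of p75NTR passed in either fit, where the block called 8.57% of all genes tested. The most abundant were Maged1, with a mean of 453.1 ± 28.2 CPM in negative and 459.6 ± 85.1 CPM in positive libraries, and Arhgdia, with 276.3 ± 43.5 and 210.0 ± 49.9 CPM (SD, n = 3 each). Of 6 tested factors named for a neurotrophic activity, 1 passed with the block. Mdk, the gene of the heparin-binding growth factor midkine, was higher in CD34 negative CAFs (1.02 ± 0.16, adjusted p = 0.00517), although the groups overlapped.

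**Figure D4:**
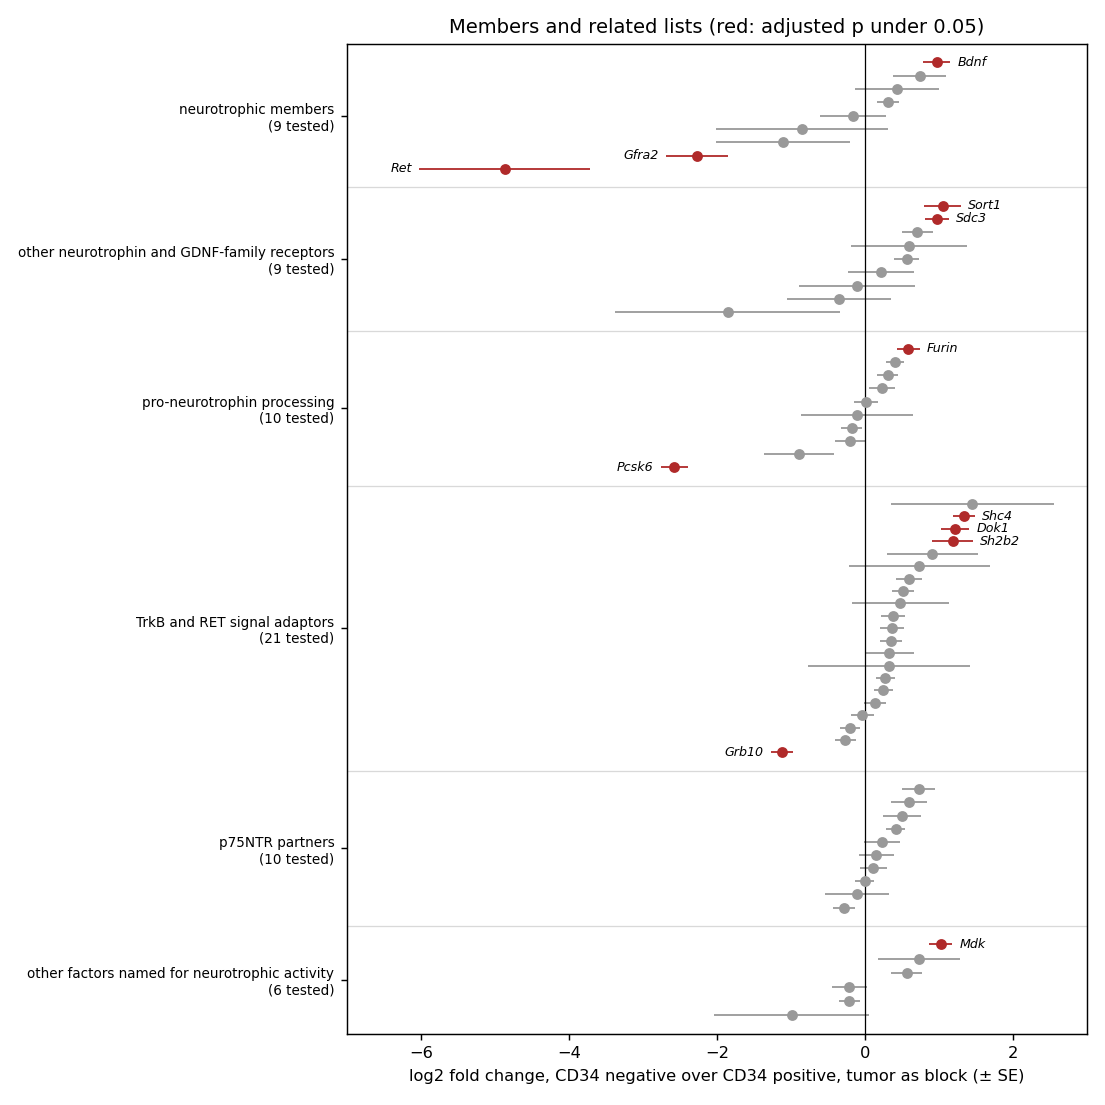
Fitted log2 fold change ± SE with the tumor as a block (x axis, positive where CD34 negative CAFs were higher) for each tested gene of the members and of 5 related lists (y axis), in red where the adjusted p was under 0.05. The 9 members span from Ret at -4.87 to Bdnf at 0.97. Of the 21 adaptors 4 were called, where 8.57% of all genes tested were called.

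Genes with the most similar profile were found for each member by Pearson correlation of log2 CPM over the 6 libraries, among 8944 genes of at least 3 on the mean log2 CPM scale. The closest to Bdnf were Mrps24 (0.991), Dcun1d1 (0.987) and Col15a1 (0.980), and of these only Col15a1, a basement membrane collagen gene, was itself called with the block (0.68, adjusted p = 0.00981). Closest to Ret were Nfkbiz (0.994), Mphosph6 (0.991) and Stx2 (0.990), of which Mphosph6 (adjusted p = 0.0284) and Stx2 (adjusted p = 0.0242) were called lower with the block. Gfra2 was followed by Gm5148 (0.998), Fam204a (0.998) and Wdr41 (0.993), none of them called. For Ntrk2 the nearest were Pde4b, Ndrg2 and Eif1a, for Gfra1 Klhl20, H2-M3 and AI987944, and for Ngfr Srrm2, Per2 and Ptprg. Those of Ntf3 were Helb, Dipk2a and Lamb1, those of Gdnf Sil1, Alyref and Sema3a, and those of Ntrk3 Irf1, Ccndbp1 and Ttc33. The 6 points share 3 tumors and differ in depth, and with so many genes searched over so few points, values this high are a description only.

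**Figure D5:**
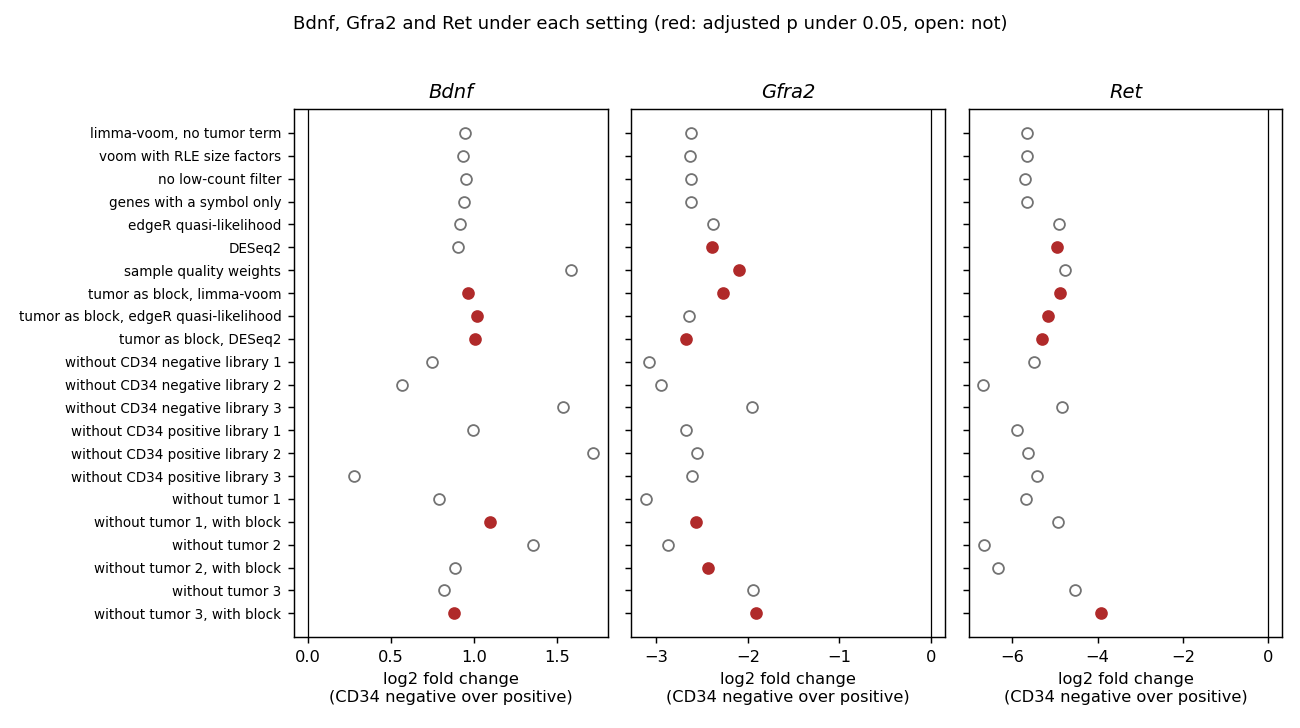
Log2 fold change of Bdnf, Gfra2 and Ret (x axes, positive where CD34 negative CAFs were higher) under each setting (y axis), filled in red where the adjusted p was under 0.05. No setting turned the direction of any of the 3. Of 21 alternatives, 5 called Bdnf, all with the tumor as a block, 7 called Gfra2 and 5 called Ret.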

How the data were processed

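RNA was sequenced from 6 libraries, and group and tumor came from the sample titles. Per the study's methods, poly(A) libraries were aligned to GRCm38/mm10 and counted per NCBI gene with Rsubread; the authors deposited raw counts with no normalization. Whether strand was used is not given in the sources used here, and RefSeq genes overlap Ntrk2, Ntrk3, Gfra1 and Gfra2. Counts were filtered with filterByExpr (minimum count 10), scaled by TMM and tested with limma-voom (R 4.3.3, edgeR 4.0.16, limma 3.58.1, DESeq2 1.42.0 as an alternative), after tests on simulated data. P-values of the model without the tumor set the difference against the spread between the 3 libraries of a group. With the tumor as a block, they rest on how the difference between the fractions varies over the 3 tumors, which supplied both groups. Libraries with 1 tumor number are paired by their tumor of origin; deviations from the group means correlated at 0.373, 0.350 and 0.219 in tumors 1, 2 and 3. CPM are counts per TMM-scaled library size, and RPKM used the deposited gene lengths. The members and lists were chosen with earlier results of these data known. Named were the members, Cd34, list genes with an adjusted p under 0.05 in either fit (else the 2 most abundant), and the 3 genes closest to each member. Uchl1, Mcam, Des, Acta1, Gfral and Gfra3 were named after their values were seen. Some list and marker genes enter the counts and sums but are not reported here on their own. Positions and promoter windows are those of RefSeq (GRCm38.p6), transcripts those of GENCODE.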

Additional observations from a re-analysis of the deposited data

How the results depend on the processing

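The number of members past the threshold, 0 in the main model, depended mainly on the tumor term. It was 3 with the tumor as replicate block in limma-voom and in DESeq2, 2 in edgeR with the block, 2 in DESeq2 and 1 with sample quality weights, both without the block. With the block it was 2 without tumor 1, 2 without tumor 2 and 3 without tumor 3. Leaving out single libraries gave 0 throughout. For the related lists, 1 in the main model, the number was 10, 7 and 13 with the block in limma-voom, edgeR and DESeq2 and 5 in DESeq2 without it. It was 0 without tumor 2 and without tumor 3, and with the block 12, 7 and 16 without tumors 1, 2 and 3. Leaving out single libraries gave between 0 and 1, with 0 without negative library 3 or positive library 2. Over all genes, 18 calls became 9 in edgeR, 698 in DESeq2 and 161 with quality weights. With the block they became 1273, 575 and 1733 in limma-voom, edgeR and DESeq2. Without tumors 1, 2 and 3 they were 86, 0 and 0, and with the block 1134, 851 and 2019. Leaving out single libraries gave between 0 and 34. The causes were not tested. At the counts of 0, between 1 and 3 members and between 1123 and 2217 of all genes had an unadjusted p under 0.05. Pcsk6 lost its call without negative library 3, without positive library 2, without tumor 2 and without tumor 3.

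Directions turned for members that were not called. Gdnf, at -0.08 in the main model, was 0.0842 in edgeR and 0.0732 in DESeq2, 0.19 and 0.18 in these with the block, and 0.89 and 0.80 without tumor 2, without and with the block. Leaving out single libraries put Gdnf between -0.44 and 0.69, Ngfr between -0.37 and 2.51, Ntrk3 between -2.29 and 0.61 and Gfra1 between -0.74 and 1.01. Ntrk3 was 0.67 without tumor 3. Gfra1, at 0.07, was -0.40 with quality weights, -0.0016 without tumor 2, and -0.59 and -0.18 without tumor 3, without and with the block. Maged1, at 0.02, was -0.0208 in edgeR and -0.0321 in DESeq2, -0.00595, -0.00647 and -0.0182 with the block in limma-voom, edgeR and DESeq2, -0.0901 and -0.0969 without tumor 1, without and with the block, -0.0149 without tumor 3 with the block, and between -0.11 and 0.13 without single libraries. Bdnf, Gfra2 and Ret kept their direction in all 21 alternatives, within 0.27 to 1.72, -3.12 to -1.91 and -6.68 to -3.91. DESeq2 called Gfra2 and Ret also without the block, and quality weights called Gfra2. Low counts limit Ntf3, Ntrk3 and Ret most, at 2, 0 and 1 counts in negative library 3. That library held 35310817 counts in all, more than positive library 1 (16238059) or positive library 3 (27204097).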
